A study of Homo sapiens with 30 samples.

Results

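LOUCY is an established human leukemia line with the immature profile of early T cell precursor leukemia (ETP-ALL), and lines made from it were compared before any inducer was given. The M line carries a dox-inducible MEF2C construct, the ICN line a construct of the intracellular part of NOTCH1 (ICN), and the M_ICN line both constructs. The ICN construct is taken here to be induced by dox as well. The sample titles say only whether there was overexpression, and the paper describes dox induction for MEF2C. All 3 lines were grown in medium without dox. The ICN and M_ICN lines, with 3 arrays each, were set against the 3 arrays of the M line, and these 9 arrays were taken from the 30 of the series by their labels. The question is how far lines that should differ only in a silent construct already differ, including in genes that respond to ICN. MEF2C itself is active in every LOUCY derivative through a rearrangement near its locus, and the parental line carries no *NOTCH1* or *FBXW7* mutation. The M line is a bulk population made by lentiviral transduction and flow sorting, in which the TRE3G promoter drives a codon optimized MEF2C followed by BFP. The sources used here say neither how the ICN construct is built nor whether the ICN and M_ICN lines are bulk populations or clones, and no parental LOUCY array was analysed here.

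Notch receptors are cut upon ligand binding, and the released intracellular domain enters the nucleus, binds RBPJ and switches on targets such as *HES1*, *HEY1*, *DTX1* and *IL7R*. In the thymus this signal commits progenitors to the T lineage and shuts off the B cell program. MEF2C is a MADS-box transcription factor of muscle, neurons and early lymphoid progenitors that is silenced as T cells mature. Dox-inducible promoters can leak, so that some product is made without dox.

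Values are log2 intensities of probe sets after RMA, the normalization the authors used, and a difference of 1 stands for a 2-fold change of signal. The median of the deposited values was 4.79 and 75% of them were below 7.18, so that readings near 3 are close to background. Arrays of the same line correlated at 0.995 to 0.997 over all probe sets, arrays of the ICN and M_ICN lines with each other at 0.992 to 0.994, and either line with the M line at 0.987 to 0.991. The control probe set for 18S ribosomal RNA read 12.6 to 12.7 in the M line, 12.2 to 12.6 in the M_ICN line and 11 to 11.9 in the ICN line, and its part in the results was not tested. Of the arrays used only for reference, replicate 2 of the M line on OP9-GFP without dox and replicate 1 of the ICN line with dox stood apart. Their 18S readings were 9.44 and 8.79, and the 3′ probe set of *GAPDH* exceeded the 5′ one by 0.79 and 0.69, against -0.03 to 0.18 on the other 28 arrays. Some values that rest on them are repeated below without both arrays, and others that are not repeated can change as well. Nothing says that the 3 arrays of a line are separate cultures, and the p-values therefore reflect array-to-array spread that may be technical. Each line is a single derivative of LOUCY, and ICN made without dox cannot be told apart from any other difference between the populations or from the time at which they were grown and hybridised. Markers of the line were present in each: *PTPRC* averaged 11.32, 11.18 and 11.64 in the M, ICN and M_ICN lines, and *CD7* 6.99, 7.49 and 6.82. *CD3E* averaged 7.71, 7.69 and 7.64 and *CD34* 5.48, 5.40 and 5.34, while *GATA3* was lower in the ICN lines by 0.36 (adjusted p = 3.2e-06). Of the B cell, myeloid, erythroid and stromal markers, *CD79A* (-0.89), *LYZ* (-0.61) and *HBB* (-0.63) were lower in the average of the ICN lines. *CD79A* was not called in the ICN line taken alone (-0.20). The markers *MS4A1*, *CD14*, *MPO*, *CSF1R*, *COL1A1*, *COL1A2*, *PDGFRB* and *DCN* were not called. Their part in the results was not tested.

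The uninduced lines differed at many genes. At the study's criteria (log2 difference beyond 0.6, p under 0.05 and q under 0.1), 1664 probe sets were higher and 1026 lower in the average of the ICN and M_ICN lines than in the M line, which is 4.93% of 54613. Taken alone, the ICN line differed from the M line at 3046 probe sets, 1978 of them higher (5.58%), and the M_ICN line at 2911, 1672 of them higher (5.33%). Fewer probe sets, 1096 or 2.01%, separated the M_ICN line from the ICN line, 410 higher and 686 lower in M_ICN. Per gene, at an adjusted p under 0.05 over all probe sets (limma), 14.3% of 19775 genes were higher and 13.8% lower in the average of both lines. The same shares were 12.9% and 12.3% for the ICN line and 12% and 11.9% for the M_ICN line, and these are the background against which counts of named groups are given. The median gene differed by -0.04. For bulk cells, a higher level in every cell and a larger share of cells with the transcript cannot be told apart.

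The probe sets of *NOTCH1* and *MEF2C*, the genes of the constructs, hardly differed. The brighter *NOTCH1* probe set read 7.14, 7.32 and 7.50 in the M line, 7.59, 7.52 and 7.60 in the ICN line and 7.51, 7.32 and 7.42 in the M_ICN line. The 3 ICN arrays lay above the M arrays by a small margin and the M_ICN arrays overlapped with them. The average difference of 0.18 did not pass (SE 0.07, adjusted p = 0.071). It did pass under some alternatives, as without M replicate 3 (0.27, adjusted p = 0.0099), and it was reversed against OP9-GFP (-0.30). The ICN line alone differed by 0.25 (adjusted p = 0.026). The other *NOTCH1* probe set read 3.87, 4.11 and 4.15 in M, 4.41, 4.37 and 4.19 in ICN and 4.23, 4.19 and 4.29 in M_ICN, with a difference of 0.24 (adjusted p = 0.21). Only this dim probe set answered dox in the ICN-bearing lines, by 0.56 in the ICN line (adjusted p = 0.013) and by 0.81 in the M_ICN line (adjusted p = 0.00035). The brighter one rose with dox in the M line, which has no ICN construct, by 0.32 (adjusted p = 0.013). Which *NOTCH1* probe sets read the ICN construct is not known, so these values do not show how much ICN was made without dox. The brightest *MEF2C* probe set averaged 10.28 in M, 10.31 in ICN and 10.08 in M_ICN, a difference of -0.09 for both lines (adjusted p = 0.14). The M_ICN line was slightly below the M line there (-0.20, adjusted p = 0.003) and at the next brightest (-0.26, adjusted p = 0.0035). With dox these probe sets changed by -1.08 and -1.04 in M and by -2.21 and -2.28 in M_ICN. The paper states that most *MEF2C* probe sets lie outside the cloned sequence and read the endogenous gene. Their values therefore need not show the construct. The dimmest *MEF2C* probe set rose with dox by 0.53 in the M line and by 0.66 in the M_ICN line. Without dox the 3 lines did not differ on it (0.00, SE 0.125).

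Some Notch target genes were higher in the uninduced ICN line, while the M_ICN line was near the background of all genes apart from *HES1* and *HEY1*. Of 18 direct targets measured, 7 were higher and 1 lower in the average of both lines (median 0.02), 8 were higher and 0 lower in the ICN line (44.4% and 0%, 10 not called, median 0.07), and 2 were higher and 2 lower in the M_ICN line (11.1% each, beside 12% and 11.9% of all genes). Set directly against the ICN line, M_ICN was lower at 7 of the 18 and higher at 0, where 5.15% of all genes were lower and 3.73% higher.

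*HES1*, the basic helix-loop-helix repressor that is the standard readout of Notch signaling, showed the largest difference of the group. Its proximal promoter is shown because this gene carries the result, together with that of *HES4*, a close relative on the list. Both are RefSeq windows on GRCh38.p14 of 150 bases that end just before the annotated start, read 5′ to 3′ on the gene's strand, with capitals on the RBPJ core motif TGGGAA.
*HES1*, chr3:194135998-194136147, plus strand: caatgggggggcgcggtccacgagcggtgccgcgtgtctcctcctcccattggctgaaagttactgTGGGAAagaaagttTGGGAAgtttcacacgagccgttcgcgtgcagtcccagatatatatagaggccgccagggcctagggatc
*HES4*, chr1:1000098-1000247, minus strand: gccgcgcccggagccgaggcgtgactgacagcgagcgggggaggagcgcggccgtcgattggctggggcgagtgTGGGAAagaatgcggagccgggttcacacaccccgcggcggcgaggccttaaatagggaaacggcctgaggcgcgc
The *HES1* window holds the motif 84 and 70 bases before the start and the *HES4* window 76 bases before it. Searched on both strands as TGGGAA or TTCCCA, wider windows of 300 bases, which run to 50 bases past the start, held the motif in 24% of 35116 promoters, and in 6 of the 14 targets found in the table. Besides *HES1* and *HES4*, the targets with the motif were *HES5*, *HEYL*, *HEY2* and *LFNG*, which were not called in the ICN lines. The windows of *IL7R*, *SHQ1*, *NRARP* and *RHOU* held none, which says only that these letters are not in the window.

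*HES1* read 5.56, 5.84 and 5.36 on the M arrays, 10.27, 10.23 and 10.08 on the ICN arrays and 9.27, 9.38 and 9.36 on the M_ICN arrays. The 3 lines did not overlap, and the ICN line was highest. The difference from M was 4.61 in the ICN line, a 24.4-fold higher signal, and 3.75 or 13.5-fold in the M_ICN line (SE 0.10 each, adjusted p = 2.9e-21 and 8.3e-19), and M_ICN lay 0.86 below ICN (adjusted p = 1.1e-06). Dox added 0.40 in the ICN line (adjusted p = 0.0075, or 0.34 without its low-quality array) and 1.57 in the M_ICN line, to 10.59 and 10.90, so the ICN line was already close to its induced level. For scale, OP9-DL1 stroma, which displays a Notch ligand, raised *HES1* in the M line by 1.89 over OP9-GFP stroma, from 7.45 to 9.34. The M line in medium, at 5.59, was thus also below the same line on OP9-GFP. A second probe set differed by 4.07, while the third, a dim one at 2.85 to 3.69, differed by 0.18 and was not called.

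*IL7R*, the receptor chain for IL-7 and a target of Notch in T progenitors, was high in only 1 of the uninduced ICN lines. Its values were 4.76, 4.81 and 5.12 in M, 8.17, 7.92 and 7.94 in ICN and 4.68, 4.68 and 4.87 in M_ICN. The ICN line was above the M line by 3.11 (SE 0.12, adjusted p = 5.1e-16) with no overlap, while the M_ICN line overlapped with M and differed by -0.15 (adjusted p = 0.43). At its other probe set the ICN arrays read 6.59 to 6.70, the M arrays 5.34 to 5.44 and the M_ICN arrays 4.73 to 5.12, so that M_ICN was lower there by 0.47 (adjusted p = 0.00079). The difference between the ICN lines was -3.26 (adjusted p = 2.7e-16). Both lines answered dox, by 1.87 and 4.65, and reached 9.88 and 9.40.

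*HEY1*, another repressor of the *HES* family, read 5.0, 4.87 and 4.96 in M, 7.11, 6.92 and 7.02 in ICN and 5.44, 5.49 and 5.70 in M_ICN. No line overlapped with another, and the M_ICN line lay between the others. It was higher than in M by 2.07 in the ICN line (adjusted p = 1.1e-13) and by 0.60 in the M_ICN line (adjusted p = 0.00012). Unlike *HES1* it was far from its induced level, as dox added 4.96 and 2.26. *HES4* read 7.62, 7.04 and 7.65 in M, 9.09, 9.19 and 9.36 in ICN and 8.24, 7.70 and 8.32 in M_ICN. It was higher by 1.78 in the ICN line (adjusted p = 0.0041), while the 0.65 of the M_ICN line did not pass (adjusted p = 0.34) unless the 9 arrays were fitted alone (adjusted p = 0.039). Its average of 1.22 (adjusted p = 0.02) became 1.02 (adjusted p = 0.1) without M replicate 2. *DTX1*, a ubiquitin ligase of the pathway, read 4.44, 3.96 and 4.37 in M, 6.13, 5.25 and 6.05 in ICN and 4.48, 4.38 and 4.59 in M_ICN, and differed by 1.55 in the ICN line (adjusted p = 4e-07) and 0.23 in the M_ICN line (adjusted p = 0.43).

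*SHQ1*, an assembly factor of H/ACA ribonucleoproteins, was higher by 0.89 in the ICN line, whose arrays read 10.01 to 10.23 against 9.21 to 9.23 in M, and differed by 0.15 in M_ICN (adjusted p = 0.11). *RHOU*, which encodes a small GTPase, went in opposite directions in the ICN and M_ICN lines. It read 6.48, 6.78 and 6.76 in M, 8.29, 8.31 and 8.31 in ICN and 5.80, 5.84 and 5.89 in M_ICN, differences of 1.63 (adjusted p = 3e-11) and -0.83 (adjusted p = 3e-06). *CD7* was higher in the ICN line only, by 0.50 (adjusted p = 0.0027), and M_ICN lay 0.67 below ICN. *NRARP*, *HES5*, *HEYL*, *HEY2*, *NOTCH3*, *PTCRA*, *LFNG*, *MYC* and *IGF1R* were not called, with average differences of -0.30 to 0.13. *HES5*, *HEY2*, and *MYC*, whose probe set averaged 2.95 in M, were near background in all 3 lines. *CR2*, a complement receptor, was the 1 member called lower, by 0.27 at a level near 3, and it was not called with the 9 arrays fitted alone (adjusted p = 0.084). The plot of 6 targets on all arrays sets these levels beside the induced ones.

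**Figure D1:**
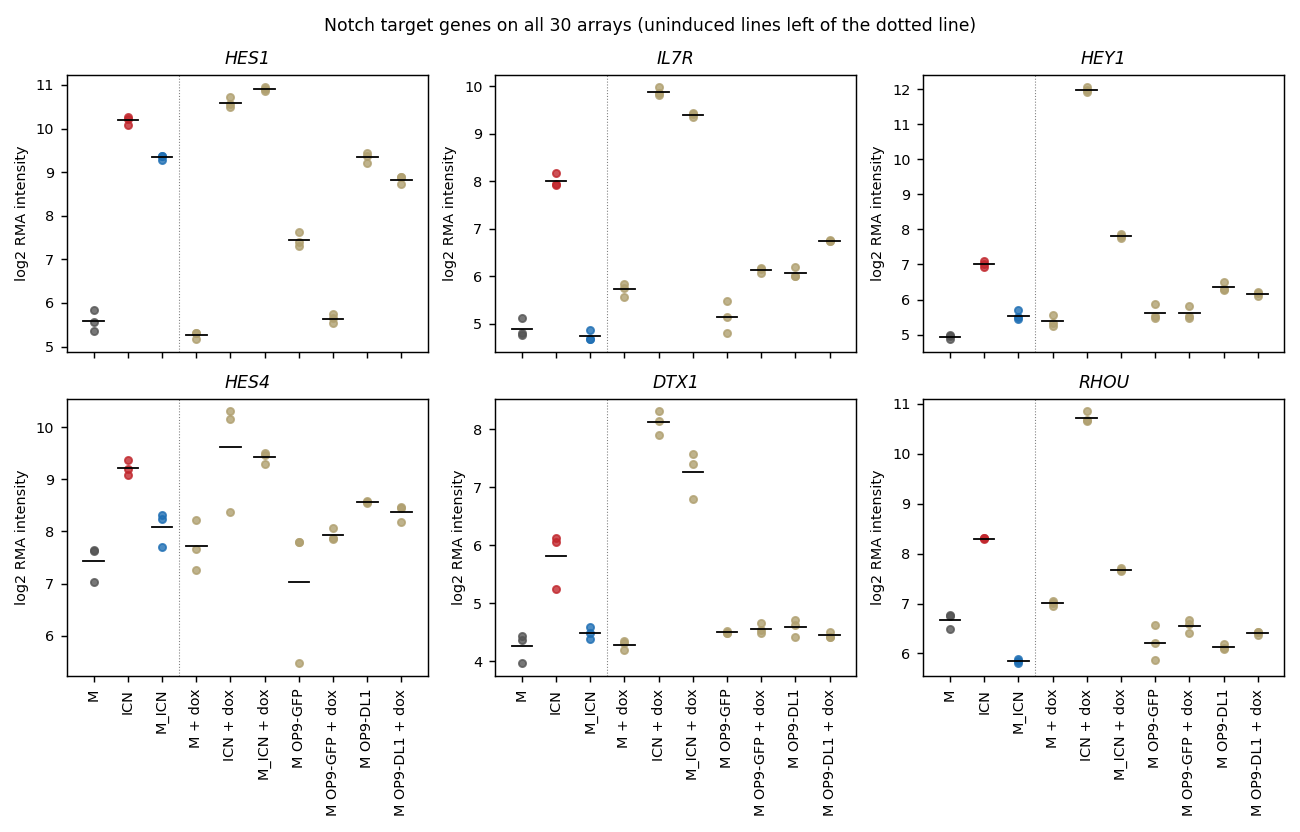
Log2 RMA intensity (vertical axis) of 6 Notch targets on each array, grouped by condition (horizontal axis), with bars at the mean of 3 arrays and the uninduced lines in medium left of the dotted line. *HES1* is high in both uninduced ICN lines (10.19 and 9.34 against 5.59), *IL7R* and *DTX1* only in the ICN line, and *HEY1* rises further with dox.

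Among 29 measured receptors, ligands and other components of the pathway, 8 were higher and 3 lower in the average (median 0.15). The coactivators *MAML2*, *MAML3* and *MAML1* were higher by 0.88, 0.31 and 0.20, the ligand gene *JAG2* by 0.53, the Notch inhibitor *NUMB* by 0.47 and the ubiquitin ligase subunit *FBXW7* by 0.33. The secretase subunit *NCSTN* (0.19) and the sheddase *ADAM17* (0.18) were also higher. The Deltex gene *DTX3* was lower by 0.89, *DTX4* by 0.27 and the sheddase *ADAM10* by 0.24. Not all of these were shared. *FBXW7* (0.50), *NCSTN* (0.26), *ADAM17* (0.20) and *DTX4* (-0.53) were called in the M_ICN line but not in the ICN line (0.15, 0.12, 0.17 and -0.02). *RBPJ*, the DNA-binding partner of ICN, averaged 10.30 in M, 10.40 in ICN and 10.10 in M_ICN and was not called on average (-0.05). The members that were higher were 4, not 8, without M replicate 1. Against the M line on OP9-GFP 6 were higher and 6 lower, and 8 and 3 without its replicate 2.

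Genes that answered a Notch ligand in the M line were next described in the uninduced ICN lines. On OP9-DL1 stroma against OP9-GFP, without dox, 27 genes were higher by more than 1 (0.137% of genes, adjusted p under 0.05). Those arrays are none of the 9 compared here, and *HES1* is the 1 gene shared with the target list. In the average of the ICN lines 23 of the 27 were higher and 0 lower, with a median of 1.38, beside 14.3% of all genes higher. In the ICN line 24 were higher and 0 lower (median 1.85), and in the M_ICN line 21 were higher and 2 lower (median 0.83). The M line on OP9-GFP was itself above the M line in medium at 14 of the 27 and below it at 3. Against the M line on OP9-GFP, whose arrays also chose the genes, 19 were higher and 4 lower (median 0.93). Chosen again without replicate 2 of that condition, the group had 34 genes, 25 of them shared, of which 26 were higher and 0 lower in the average (median 1.29) and 20 were higher and 6 lower in the M_ICN line. M_ICN was below ICN at 18 of the 27 and above it at 0. In 20 of them the means were ordered M, M_ICN, ICN from low to high. All 3 ICN arrays were above all 3 M arrays for 23 of the genes and all 3 M_ICN arrays for 21, while for all genes these shares were 18.7% and 18.5%, and 20.2% and 19.9% lay wholly below. Of the 27, 6 are also named below for their size.

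The group holds cytotoxic and immune genes, enzymes and channels. *GZMA*, the granule protease granzyme A, read 5.89, 6.28 and 6.18 in M, 10.70, 10.82 and 10.81 in ICN and 7.48, 7.30 and 7.48 in M_ICN. The 3 lines were apart from each other, by 4.66 and 1.30 over M. *CHRNA9*, a nicotinic receptor subunit, read 4.24, 4.16 and 4.6 in M, 8.36, 8.19 and 8.41 in ICN and 7.50, 7.52 and 7.45 in M_ICN, which are differences of 3.99 and 3.16. *IL26*, a cytokine gene of the IL-10 family, was as high in M_ICN as in ICN, 2.51 and 2.52 above M, from readings of 2.04 to 2.61 in M to 4.70 to 5.10 in the others. *EPAS1*, which encodes the hypoxia factor HIF-2 alpha, differed by 2.13 and 1.01 (its mean was 6.09 in M and 7.67 in M on OP9-GFP), *GIMAP7* and *GIMAP1*, GTPases of lymphocytes, by 2.15 and 0.99 and by 1.85 and 1.31, and *GBP1*, an interferon-induced GTPase, by 1.94 and 1.93. *ABCA1*, the cholesterol exporter, differed by 2.07 and 0.37.

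Some members of the group, as *EFEMP1* and *BCHE*, were high in the ICN line alone, and others were not called on average. *EFEMP1*, which encodes the matrix protein fibulin-3, read 4.44, 4.57 and 4.5 in M, 9.47, 9.54 and 9.39 in ICN and 3.81, 4.14 and 4.13 in M_ICN. It was 4.96 above M in ICN and 0.48 below it in M_ICN (adjusted p = 0.009), yet dox took it to 11.54 and 11.59. *BCHE*, butyrylcholinesterase, differed by 3.00 in ICN and by -0.01 in M_ICN. *PDE4B*, a phosphodiesterase, differed by 0.08 in ICN and was lower by 1.08 in M_ICN. *RGS1*, *CRTAM* and *WDR35* were not called on average. Of 9 genes lower on OP9-DL1 by more than 1, 0 were higher and 2 lower, *SLC5A12* (-2.90) and *GNAI1* (-2.33).

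**Figure D2:**
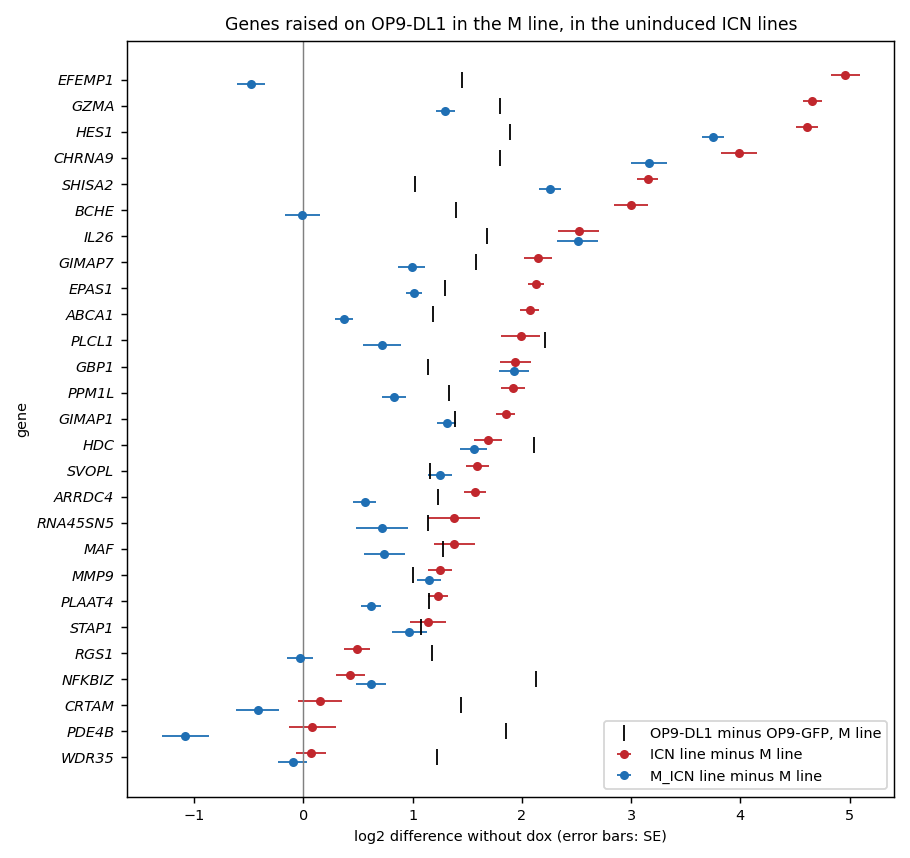
Log2 difference without dox (horizontal axis) of the ICN line (red) and the M_ICN line (blue) from the M line for the 27 genes raised on OP9-DL1 (vertical axis), with SE as bars and the ligand response that chose them as black ticks. Most red points lie right of the blue ones, and *EFEMP1* and *BCHE* are high in the ICN line only.

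The genes with the largest differences shared by both lines were of several kinds. They were taken from 1551 genes higher and 1382 lower in each line at an adjusted p under 0.05 with no overlap of the arrays, and the 12 largest each way are given. The largest was *SCN3A*, a voltage-gated sodium channel, at 4.23, 4.65 and 4.59 in M, 9.55, 9.62 and 9.52 in ICN and 9.46, 9.55 and 9.46 in M_ICN. The ICN and M_ICN arrays could not be separated (-0.07, adjusted p = 0.9), and both lay about 5 above M (5.04, SE 0.143, adjusted p = 1.2e-18). Dox lowered it in both lines, by 1.11 and 2.30, and its other probe set, near background, differed by -0.11 and was not called. *HLX*, a homeobox factor of blood cells, read 4.49, 4.37 and 4.94 in M, 7.75, 7.51 and 7.57 in ICN and 9.01, 8.95 and 8.87 in M_ICN. It was higher than M by 3.01 and 4.34, and here the M_ICN line was the higher one.

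Several of these genes are T cell genes. *CD1A*, an antigen-presenting molecule of cortical thymocytes, read 4.77, 5.01 and 4.58 in M, 9.05, 9.06 and 8.92 in ICN and 7.65, 7.88 and 7.68 in M_ICN, differences of 4.22 and 2.95. *THEMIS*, a regulator of thymocyte selection, read 2.27, 2.03 and 2.26 in M, 5.11, 4.93 and 4.99 in ICN and 6.25, 6.23 and 5.86 in M_ICN. Its M readings were at background, so the 2.82 and 3.93 understate the change. The rest of the 12, besides *HES1*, *GZMA*, *CHRNA9* and *IL26*, were *MB* (myoglobin, 2.88), *SHISA2* (2.71), *CDH17* (an intestinal cadherin, 2.40) and *WFS1* (wolframin of the endoplasmic reticulum, 2.37). Against the M line on OP9-GFP all 12 were still higher in the average of both lines, by 1.45 to 3.36. For *GZMA*, however, the M_ICN arrays (7.48, 7.30 and 7.48) overlapped with that reference (7.73, 7.79 and 7.41).

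The largest lower gene was *INHBE*, an inhibin beta chain known as a stress-induced gene. It read 7.37, 7.70 and 7.53 in M, 3.67, 2.81 and 3.73 in ICN and 2.56, 2.61 and 2.47 in M_ICN, and the difference was -4.56 (SE 0.162, adjusted p = 9.4e-17). The M line on OP9-GFP, however, averaged 2.66, and against it the ICN lines differed by 0.32 (adjusted p = 0.19). *SPINK2*, a protease inhibitor of blood progenitors, read 7.48, 7.48 and 7.45 in M, 4.32, 3.6 and 3.53 in ICN and 2.92, 4.40 and 3.00 in M_ICN. It was 3.84 lower, and 3.31 lower against OP9-GFP. *MYLK*, myosin light chain kinase, was lower by 3.70, *USP44*, a deubiquitinase, by 3.38, *SLC6A13*, a GABA transporter, by 3.24, *NNMT*, nicotinamide N-methyltransferase, by 2.98 and *SLC5A12*, a monocarboxylate transporter, by 2.90. *PDLIM1*, a cytoskeletal adaptor, was lower by 2.82, *WFDC1* by 2.69, *PCDH10*, a protocadherin, by 2.57, *SUCNR1*, the succinate receptor, by 2.40 and *GNAI1*, an inhibitory G protein subunit, by 2.33. Against OP9-GFP, *SUCNR1* was no longer lower (0.24, adjusted p = 0.24) and *USP44* was lower by only 0.66, or by 0.38 without replicate 2 of that condition (adjusted p = 0.26). Of the 24 genes, 14 have 1 probe set, 5 have several that were called alike, 5 have some that were not called, and 0 have probe sets called in opposite directions.

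**Figure D3:**
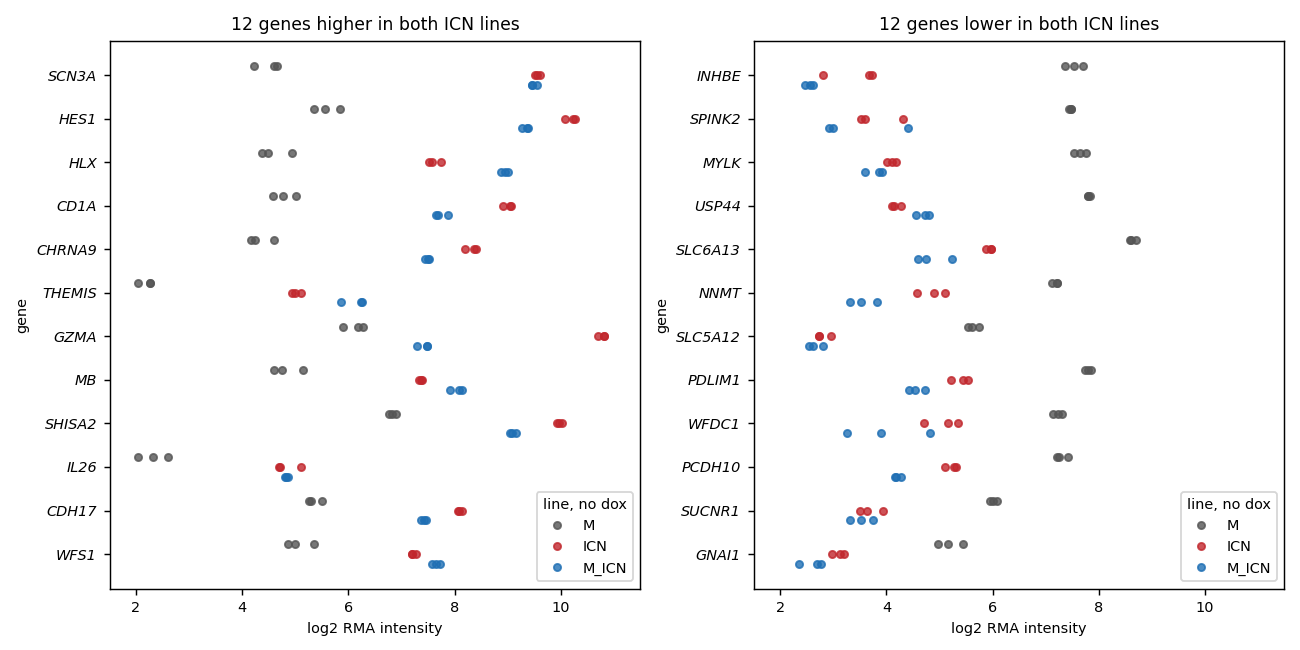
Log2 RMA intensity (horizontal axis) on each of the 9 arrays without dox for the 12 genes most higher (left) and the 12 most lower (right) in both ICN lines (vertical axis), with the M line in grey, ICN in red and M_ICN in blue. No grey point overlaps with a colored one, as the choice of genes required.

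Genes that answer MEF2C were also described, since the M and M_ICN lines carry its construct and the ICN line does not. Upon dox on OP9-GFP, again on none of the 9 arrays, 60 genes of the M line were higher by more than 1 (0.303% of genes) and 54 lower (0.273%). Of the 60, 12 were higher and 19 lower in the average of the ICN lines (median -0.12), and of the 54, 29 were higher and 18 lower (median 0.41). Shares for each line alone were alike, with 14 higher and 21 lower of the 60 in ICN and 13 and 23 in M_ICN. Chosen again without replicate 2 of the OP9-GFP condition, the groups had 70 and 47 genes, of which 14 were higher and 27 lower, and 26 higher and 15 lower. Both directions were thus above the background of 14.3% and 13.8% in both groups. *SLC6A13*, *SLC5A12*, *MYLK*, *SUCNR1*, *GNAI1*, *PTPRR* (-2.01) and *POU1F1* (-1.88) were MEF2C-raised genes that were lower, as was *CSRP3* (-1.23). For *CSRP3* the M_ICN line, with the construct, was as low as the ICN line. The 12 MEF2C-raised genes that were higher are not named here, and the highest difference in the group was 2.23. Other genes with large MEF2C responses were not called, as *SCG2*, a secretogranin (0.21, adjusted p = 0.19), *JCHAIN*, the joining chain of antibodies (0.16), *COBL* (-0.26) and *AQP4*, a water channel (-0.14). Of 10 MEF2C-raised genes listed from earlier results of these data, 0 were higher and 2 lower. Among the MEF2C-lowered genes, *HES1* (4.18), *HDC* (histidine decarboxylase, 1.63), *EPAS1* (1.57) and *ANXA1* (1.34) were higher, and *CST7* (-2.26), *HBD* (-1.95) and *LINGO2* (-1.94) lower. Of 13 MEF2 family members and regulators, 6 were higher, 2 without M replicate 1, and 1, *HDAC9* (-0.75), was lower. Against the M line on OP9-GFP 1 was higher and 3 lower, or 0 and 2 without its replicate 2.

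T cell genes were split between directions. Of 31 signaling and surface genes, 7 were higher and 9 lower (median -0.13). Besides *CD1A* and *THEMIS*, the adaptor *TRAT1* was higher by 2.22, from 5.36 to 5.67 in M to 7.50 to 8.10 on the other 6 arrays, and the kinase *TXK* by 0.60. The costimulatory receptor gene *CD28* (-1.93), *CD5* (-0.69) and the cytokine receptor chain *IL2RB* (-0.67) were lower, *CD28* and *CD5* in the M_ICN line only. Of 7 genes of the T cell receptor complex, *TARP* (0.66), from the gamma chain locus, and *CD247* (0.26) were higher and *TRDV3* (-0.39) lower, with 1 higher without M replicate 2 and 4 against OP9-GFP. Of 18 T lineage transcription factors 5 were higher and 6 lower (3 and 9 against OP9-GFP), with *EOMES* (1.43), *ID2* (0.67) and *SATB1* (0.48) up and *ZBTB16* (-0.89) and *TOX2* (-0.66) down. *EOMES*, a T-box factor, read 6.36 to 6.67 in M and 7.83 to 8.10 in the others, but did not differ from M on OP9-GFP (-0.03, adjusted p = 0.83). Of 17 NK and cytotoxic genes 2 were higher, *GZMA* and *NKG7* (0.40), and 5 lower, among them *CST7*, the receptor gene *NCR3* (-1.28), *CTSW* (-1.24) and perforin, *PRF1* (-0.87).

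Progenitor and erythroid genes were more often lower than higher, while myeloid genes were near the background. Of 26 progenitor and ETP-ALL genes 3 were higher (1 without M replicate 1, 1 against OP9-GFP) and 7 lower, and after *SPINK2* the lower ones were led by the survival gene *BCL2* (-1.09), the repressor *ZEB2* (-0.99), *LMO2* (-0.66) and *LYL1* (-0.40). *BCL2* read 10.30, 10.40 and 10.24 in M, 9.32, 9.27 and 9.18 in ICN and 9.19, 9.18 and 9.20 in M_ICN, so that M stood apart and the others overlapped. Of 14 erythroid and megakaryocyte genes 0 were higher and 9 lower, led by the platelet integrin *ITGA2B* (-2.31) and the delta globin gene *HBD* (-1.95), and 4 were lower against OP9-GFP. Of 23 myeloid genes 0 were higher and 4 lower (17.4%), with 1 and 2 in the ICN line and 2 and 3 in the M_ICN line. Against OP9-GFP the counts were 3 and 4, or 2 and 2 without replicate 2 of that condition. Those lower in medium were *CEBPB* (-1.45), *ITGAM* (-0.91), *LYZ* (-0.61) and *FCER1G* (-0.46). *ITGAM* and *FCER1G* differed between the ICN lines: *ITGAM* averaged 6.44 in M, 7.31 in ICN and 3.75 in M_ICN, and *FCER1G* 6.94, 5.30 and 7.66. *CEBPB* was 0.21 higher, not lower, against OP9-GFP.

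Of 20 B lineage transcription factors 5 were higher and 4 lower, with *ID3* (1.10), *XBP1* (0.56) and *BACH2* (0.56) up and *BCL11A* (-0.75) and *BCL6* (-0.63) down. Of 23 immunoglobulin, V(D)J and B cell surface genes 3 were higher, the surrogate light chain gene *VPREB1* (0.78), *IGHM* (0.60) and *CD38* (0.37), and 8 lower. Without M replicate 1, 5 were lower. Against OP9-GFP 4 were higher and 3 lower, but 3 and 5 without replicate 2 of that condition. Those lower in medium, in the average of both lines, were led by the kinase *BTK* (-1.87), *CD79A* (-0.89) and *RAG2* (-0.84). Each came from 1 line. *BTK* (-3.39) and *CD79A* (-1.58) were called lower in M_ICN but not in ICN (-0.35 and -0.20). *RAG2* was lower in ICN (-2.24) and higher in M_ICN (0.56). Of 18 IL-7 and JAK-STAT genes 5 were higher, with the feedback inhibitor *SOCS2* (1.10) and *JAK3* (0.74) besides *IL7R*, and 3 lower, with the cytokine *TSLP* at -1.46. Of 14 *BCL2* family members 5 were higher and 3 lower. The remaining lists are given by counts. Homing genes counted 3 higher and 4 lower of 14, interferon-stimulated genes 8 and 5 of 27 (12 and 1 against OP9-GFP), MHC class II genes 2 and 0 of 11, and proliferation genes 9 and 8 of 31. Leaving out 1 M array took the interferon genes lower to 3 (replicate 3) and the proliferation genes lower to 5 (replicate 2). Heat shock genes counted 1 and 3 of 11 (2 higher without M replicate 3 or M_ICN replicate 2), stromal genes 3 and 6 of 30 (1 and 10 against OP9-GFP), muscle genes 2 and 4 of 29, and the 1 measured *HOXA* gene, *HOXA2*, was higher by 0.46 but not against OP9-GFP.

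Most stress response genes were lower in the ICN lines, and here the M line in medium stood apart. The integrated stress response slows translation when amino acids are short or proteins misfold, and raises targets of *ATF4*. Of its 24 measured genes 0 were higher and 19 lower in the ICN lines, with a median of -0.66. *SLC7A11*, the cystine transporter, read 10.24, 10.31 and 10.36 in M, 9.02, 8.84 and 8.82 in ICN and 7.11, 7.07 and 7.24 in M_ICN. Each line was apart from the others, 2.29 below M on average. The stress sensor *SESN2* (-1.94), the pseudokinase *TRIB3* (-1.50), the amino acid transporter *SLC7A5* (-1.50), *DDIT3* (-1.14) and *ATF4* itself (-0.63) were lower too. In M_ICN 16 of the 24 were lower still than in ICN and 1 was higher. The M line on OP9-GFP gave another picture, in which 12 of the 24 were higher in the ICN lines than in M and 1 lower, where 11.8% of all genes were higher and 10.6% lower. *SLC7A11* averaged 7.17 in that condition. Without replicate 2 of that condition 11 were higher and 1 lower.

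Cholesterol and fatty acid synthesis followed the same course, with 0 higher and 9 lower of 17 in medium, such as *INSIG1* (-0.62) and *HMGCS1* (-0.48), and 9 higher and 1 lower against OP9-GFP (7 and 1 without replicate 2). Ribosome biogenesis genes ran the other way, with 10 higher and 1 lower of 15 in medium, led by *RRS1* (0.37), and 0 higher and 6 lower against OP9-GFP (0 and 7). Early and feedback genes of ERK signaling counted 12 higher and 3 lower of 26 in medium, among them *ETV5* (0.85), *DUSP5* (0.82) and *DUSP6* (0.62), and 5 and 8 against OP9-GFP, but 5 and 4 without replicate 2. Glycolysis and hypoxia genes counted 10 higher and 2 lower of 24 (1 lower without M replicate 2, M replicate 3 or ICN replicate 3). Against OP9-GFP they counted 4 and 3, or 6 and 2 without replicate 2. In the glucocorticoid response, 1 gene of 8 was higher and 5 lower in medium, and 2 were higher and 4 lower against OP9-GFP, with *TSC22D3* (-0.82) and *FKBP5* (-0.29) lower in each. The direction of the stress, cholesterol and ribosome groups therefore depended on which uninduced M culture served as reference, also without the low-quality array. In the average of both lines, higher Notch targets still outnumbered lower ones against OP9-GFP. They counted 8 higher and 2 lower of 18 (8 and 0 without replicate 2), although the difference of *HES1* was then 2.32. Counts for each line were not made against this reference. The M_ICN line averaged 9.34 for *HES1* against 7.45 on OP9-GFP, but 4.74 for *IL7R* against 5.15. Its *HEY1* arrays (5.44, 5.49 and 5.70) overlapped with those on OP9-GFP (5.52, 5.87 and 5.48). This reference was chosen after the values had been seen, and it differs from the ICN lines in stroma as well as in line.

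**Figure D4:**
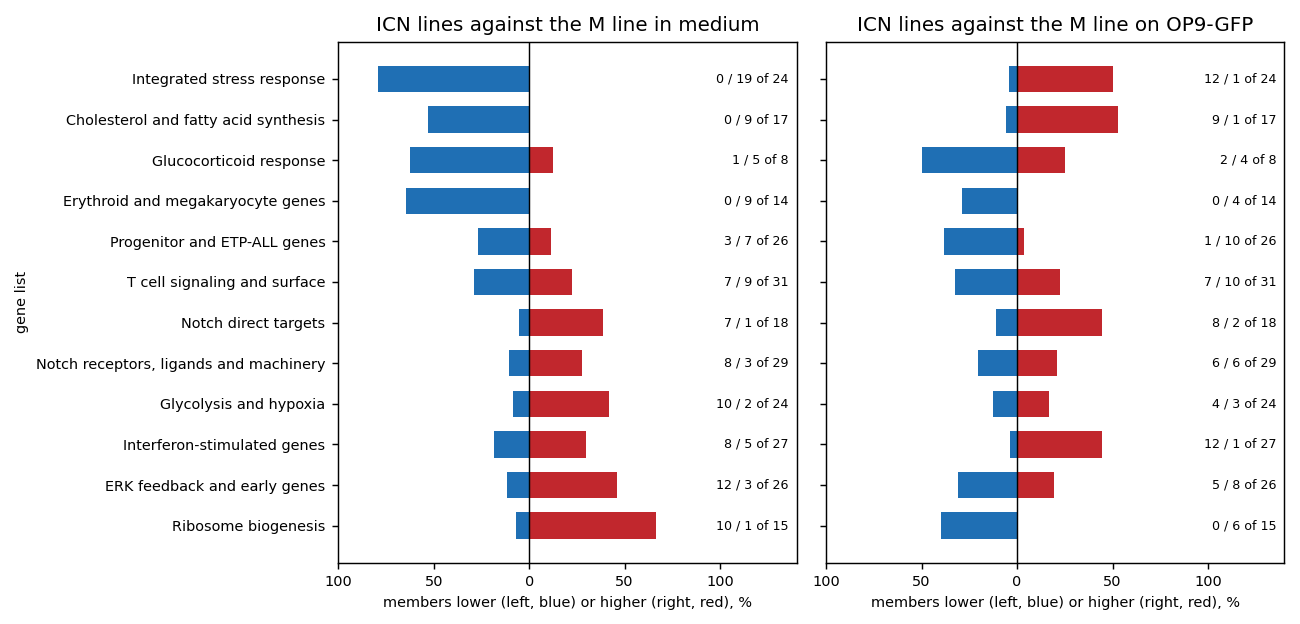
Share of the measured members of 12 gene lists (vertical axis) that were lower (blue, left) or higher (red, right) in the ICN lines, in percent (horizontal axis), against the M line in medium and against the M line on OP9-GFP, with counts higher / lower of measured at the right. Stress response members go from 0 / 19 to 12 / 1 and Notch targets from 7 / 1 to 8 / 2.

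The ICN and M_ICN lines also differed from each other. At no overlap and an adjusted p under 0.05, 734 genes were higher and 1008 lower in M_ICN. The largest measured difference was at *HDAC2*, a class I histone deacetylase. It read 9.79, 9.81 and 9.66 in M, 10.30, 10.46 and 10.30 in ICN, and 2.33, 2.04 and 2.62 in M_ICN. The M_ICN arrays were at background, 8.03 below ICN (SE 0.137, adjusted p = 5.1e-23) and 7.43 below M. At such readings the difference understates the change, and no exact fold is given. With dox the M_ICN line stayed at 2.42 (0.09, adjusted p = 0.75), and the second probe set was 1.05 below ICN. The related *HDAC1* was 0.23 higher in M_ICN than in ICN, at 11.13 to 11.19 against 10.90 to 10.94.

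Other genes lower in M_ICN were *EFEMP1* (-5.44, described above), *YOD1*, a deubiquitinase (-5.11), *GAPT* (-4.39), *CD28* (-4.12) and *CLECL1*, a lectin-like gene (-3.81). *CD28* read 8.35, 8.32 and 8.31 in M, 8.42, 8.45 and 8.51 in ICN and 4.40, 4.32 and 4.28 in M_ICN, and dox raised it there by 2.79. In *YOD1*, *GAPT*, *CD28* and *CLECL1* the ICN line was within 0.5 of M, so the M_ICN line was the one that stood apart. *BTK* behaved alike, with 7.86, 8.09 and 7.99 in M, 7.47, 7.71 and 7.71 in ICN and 4.93, 4.26 and 4.6 in M_ICN. For the genes higher in M_ICN the ICN line was more often the low one. *TPM2*, a tropomyosin (4.98), read 6.73, 7.20 and 7.26 in M, 2.69, 2.77 and 3.00 in ICN and 7.72, 7.74 and 7.95 in M_ICN. *ASB9* (4.73), *GAS2L1* (4.20) and the recombinase gene *RAG2* (2.80) had the same form, and *RAG1* was 0.86 below M in ICN and 1.14 above it in M_ICN. *CAV1*, caveolin-1 (4.35), was 1.69 below M in ICN and 2.66 above it in M_ICN, and *POF1B* (2.37) was 1.07 below and 1.30 above. Of these 12 genes 3 have 1 probe set, 5 have several called alike and 4 have some that were not called, as *TPM2* and *GAS2L1*.

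**Figure D5:**
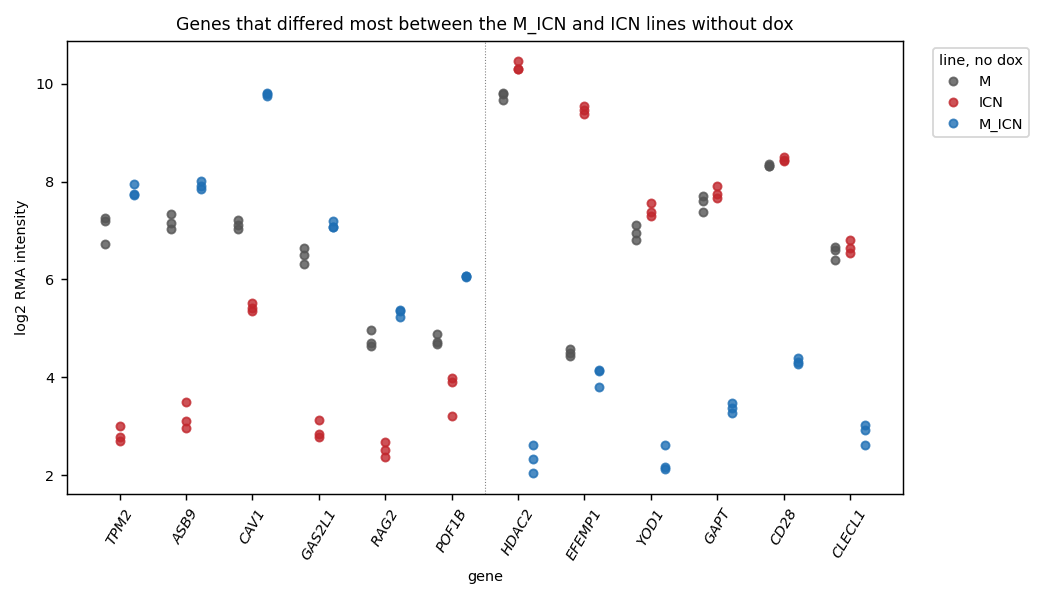
Log2 RMA intensity (vertical axis) on each of the 9 arrays without dox for the 6 genes most higher (left of the dotted line) and the 6 most lower (right) in M_ICN than in ICN (horizontal axis). *HDAC2* is at 2.04 to 2.62 in M_ICN against 9.66 or more in the other lines, and *TPM2* is low in the ICN line only.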

How the data were processed

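RNA of LOUCY lines under 10 conditions had been hybridised in triplicate, 30 arrays in all (Affymetrix HG U133 Plus 2.0). The authors deposited log2 values made by RMA (background correction, quantile normalization, median polish). Versions in the submitters' processing notes are 1.64.0 for affy and 3.6.3 for R. RMA hides a change in total RNA and shrinks differences of dim probe sets. An array has no read depth, and the number of arrays limits the precision.

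Values were used as deposited, without 62 control probe sets of 54675. Of all probe sets, 41097 carry 1 symbol, 1801 several and 11777 are not listed in the annotation used here. Each of 19775 genes is represented by the probe set that was brightest on average on all arrays. One limma model (3.58.1, R 4.3.3) over all 30 arrays and 10 conditions gave each contrast, adjusted by Benjamini-Hochberg over 54613 probe sets, and was tested on simulated data. No covariates were used. The study's methods name limma and these thresholds for comparing dox with no dox, and no test between uninduced lines. Counts of probe sets use the study's thresholds, and single genes an adjusted p under 0.05.

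Genes were named by rule: the 12 largest each way with no overlap and the same call in each ICN line, the 6 largest each way between the ICN lines, up to 6 called members of a list, and members that define a list. *XIST* and Y-linked genes were left out. *HDAC1*, *RAG1* and other genes outside this rule were named after their values were seen. Members and gene lists were chosen with earlier results of these data known, so counts are descriptions. No test was made of a list.

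Alternatives were a filter on dim probe sets (mean under 5), centring of arrays on their medians, a further quantile normalization, another variance prior, the 9 arrays alone, the 6 ICN arrays as 1 group, other thresholds, the mean of a gene's probe sets, the replicate number as a block, leaving out each array and, added after seeing the data, the M line on OP9-GFP as reference and leaving out 2 reference arrays of low quality. Promoters are RefSeq windows of GRCh38.p14.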

Additional observations from a re-analysis of the deposited data

Results flagged for a closer look

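The genes below differed between the ICN lines by a log2 beyond 1 in their difference from the M line. In the limma test of M_ICN against ICN without dox each had an adjusted p under 0.05 over all probe sets. Both lines share the same M arrays. Genes with smaller called differences, such as *HES1*, *SHQ1* and *CD7*, are not listed. Among genes named for both lines, M_ICN minus ICN was 1.33 for *HLX* and 1.10 for *THEMIS*, and it was -1.27 for *CD1A*, -3.36 for *GZMA*, -1.09 for *SLC6A13*, -1.30 for *NNMT*, -1.08 for *WFDC1* and -1.03 for *PCDH10*. Among Notch targets it was -3.26 for *IL7R*, -2.46 for *RHOU*, -1.47 for *HEY1* and -1.33 for *DTX1*.

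Among genes named for this contrast, M_ICN was higher by 4.98 for *TPM2*, 4.73 for *ASB9*, 4.35 for *CAV1*, 4.20 for *GAS2L1*, 2.80 for *RAG2* and 2.37 for *POF1B*. The difference was -8.03 for *HDAC2*, -5.44 for *EFEMP1*, -5.11 for *YOD1*, -4.39 for *GAPT*, -4.12 for *CD28* and -3.81 for *CLECL1*. They were named for the size of this difference, which is therefore a description.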

How the results depend on the processing

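The counts of probe sets at the study's criteria stayed within 1.5 times of the reported ones under the filter, both rescalings, the variance prior, the 9 arrays alone, the 6 ICN arrays as 1 group (2654) and the OP9-GFP reference (1950, with 964 called alike and 30 in opposite directions; 1948, 847 and 43 without replicate 2 of that condition). With a log2 threshold of 1 they were 707 for both lines, 858 for ICN, 815 for M_ICN and 340 between the ICN lines, and without a fold threshold 13249, 11673, 11052 and 3774. Leaving out 1 array gave 2526 to 2890, 2831 to 3455, 2735 to 3282 and 1083 to 1274. Same-numbered arrays did not deviate together (correlations of -0.36 to 0.15, 2 of 9 over 0.1), and with the replicate block the counts were 2681, 3034, 2905 and 1094.

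Of the Notch targets 6 to 7 were higher and 0 to 1 lower when 1 array was left out. The count lower was 0 with the 9 arrays alone, 2 with the mean of all probe sets and 2 against OP9-GFP. Of the genes raised on OP9-DL1, 23 to 23 were higher and 0 to 1 lower, and 1 was lower with the mean of all probe sets. For 125 genes and probe sets followed under the alternatives, 1973 of 2024 values kept direction and call, 27 lost the call, 19 gained it and 5 reversed. The reversals were against OP9-GFP: *INHBE* 0.32, *SUCNR1* 0.24, *CR2* 0.11, *NOTCH1* -0.30 and *HDAC1* -0.24. The cause was not tested. Dim readings limit what low genes can show.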

Other observations

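Genes known as targets of p53, the transcription factor that answers DNA damage, were higher in the ICN lines. A list of 24 was written after *CDKN1A* (1.97), *TNFSF10* (1.98), *TIGAR* (1.74) and *BAX* (0.72) had been seen to be higher, and it leaves those 4 genes out. Of its 22 measured members 18 were higher and 0 lower in the average, with a median of 0.54, where 14.3% of all genes were higher. In the ICN line 17 were higher and 1 lower, in the M_ICN line 14 and 1, and M_ICN was below ICN at 10 and above it at 1. The nuclease gene *AEN* read 6.97, 7.05 and 7.05 in M, 8.81, 8.90 and 8.73 in ICN and 8.49, 8.34 and 8.17 in M_ICN, a difference of 1.55 (SE 0.062, adjusted p = 1e-15). *MDM2*, which encodes the ubiquitin ligase of p53, differed by 1.51, *TRIAP1* by 1.47, *ZMAT3* by 1.44 and *SESN1* by 1.43. Against the M line on OP9-GFP 17 were higher and 1 lower (median 0.68), or 18 and 1 without its replicate 2. The call of *BAX* was lost when any of several single arrays was left out, for example at 0.63 (adjusted p = 0.12) without M replicate 2.

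The nearest genes with a probe set on either side of *HDAC2* were read as well. *MARCKS* averaged 5.74 in M, 5.34 in ICN and 2.92 in M_ICN, and *MROCKI*, a noncoding RNA gene, 6.22, 6.09 and 3.25, differences of -2.43 and -2.84 between the ICN lines. The other 6, *LAMA4-AS1*, *LINC02880*, *HDAC2-AS2*, *HS3ST5*, *FRK* and *NT5DC1*, differed by -0.20 to 0.29 and were not called. Of these only *NT5DC1* read well above background, at 6.89 in M, 6.69 in ICN and 6.92 in M_ICN. The rest averaged only 2.65 to 4.26 in M, so a lower level in M_ICN could hardly be seen there. The low readings of *HDAC2*, *MARCKS* and *MROCKI* were also seen in the M_ICN line with dox, at 2.42, 3.51 and 3.47.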
